A study of Homo sapiens with 3 samples.

Results

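The transcripts of 10 genes that report on bone morphogenetic protein (BMP) and transforming growth factor beta (TGF-beta) signaling were followed in HCT116 cells treated with siRNAs against *HOXA5* short RNA. They are *ID1*, *ID2*, *ID3*, *ID4*, *SMAD6*, *SMAD7*, *BMP4*, *BAMBI*, *TGFBR1* and *TGFBR2*, chosen by name for their place in the pathway among the 21610 genes that the arrays name. The choice was made with earlier results of these data known, so comparisons with all genes describe the list and test nothing. A probe of each was found through its RefSeq transcript, and 8 of the 10 were well above background on all 3 arrays, as were 12029 of all named genes. HCT116 is an established human colon cancer line with defective DNA mismatch repair and known for inactivating mutations in the coding sequence of *TGFBR2*. The groups are cells given control siRNA, cells given siRNA #7 and cells given siRNA #8, each harvested at 48 h, and the labels name no other treatment or allele that separates them. Total RNA (400 ng) of each group was labeled with Cy3 and hybridized to 1 whole-genome Agilent array, and all 3 arrays lay on 1 slide, so the position on the slide and the treatment cannot be told apart. Since each condition rests on 1 array, the differences have no replicate check and no p-value is given.

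BMP and TGF-beta ligands bind paired type I and type II receptor kinases, which phosphorylate SMAD proteins that enter the nucleus with SMAD4. BMP receptors act through SMAD1, SMAD5 and SMAD9, and TGF-beta receptors through SMAD2 and SMAD3. The *ID* genes are direct targets of BMP signaling, and their proteins hold E proteins off DNA and delay differentiation. *SMAD6* and *SMAD7* encode inhibitory SMADs that are themselves induced by the signal and feed back on the receptors. In the colon, BMP signaling is known for promoting differentiation away from the crypt base.

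Both siRNAs were designed on the exon junction of *HOXA5* short RNA, and they are shown because much of what follows compares one with the other. Their designed strands, 5′ to 3′, overlap by 17 of 21 bases, given in capitals, and each has 4 bases that the other lacks.
siRNA #7: gagaAACUGAAAGACAACAUA
siRNA #8: AACUGAAAGACAACAUAggcg
The shift between them changes bases 2 to 8 of the complementary strand, the stretch that pairs first with a target, shown in capitals in the reverse complements. Which strand was loaded was not measured.
siRNA #7, reverse complement: uAUGUUGUcuuucaguuucuc
siRNA #8, reverse complement: cGCCUAUGuugucuuucaguu

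The values are intensities of single spots after background subtraction by the scanner software. The siRNA #7 and siRNA #8 arrays were dimmer than the control array, with a 75th percentile of 42.1 and 42.8 against 52.8 over gene probes, so the level of a probe was taken as its log2 intensity minus the log2 of that percentile. A log2 ratio is the difference of 2 such levels, and its error is the spot-to-spot SD from probes printed 10 times, which was 0.15 to 0.18 on the log2 scale per array. This error comes from spotting and scanning, and the variation between cultures is not in it. The number of arrays limits the precision. Both ratios to control siRNA use the same control array, so an error of a control spot enters both. Scaling on spike-in controls in place of the percentile moved the median of all genes by -0.33 with siRNA #7 and by -0.24 with siRNA #8, so a positive ratio smaller than this shift turned negative under that scaling. For the 10 genes these turns are named below, and of the other genes named here *FSTL1*, *LTBP4* and *RUNX3* with siRNA #7 and *BMP7* and *BMPR1A* with siRNA #8 turned. A probe named for *HOXA5*, the gene at the targeted locus, was also read. Its intensity was 84.9 with control siRNA, 52.6 on the siRNA #7 array and 58.5 on that of siRNA #8. After scaling its log2 ratios to control were -0.36 (SD 0.25) and -0.23 (SD 0.26), and the second lies within its error. Whether this probe separates *HOXA5* short RNA from the *HOXA5* mRNA was not tested, so its ratios do not measure the knockdown. The paper followed the knockdown by qPCR and reported that either siRNA selectively lowered the short RNA, with *HOXA5* mRNA levels unaffected.

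**Figure D1:**
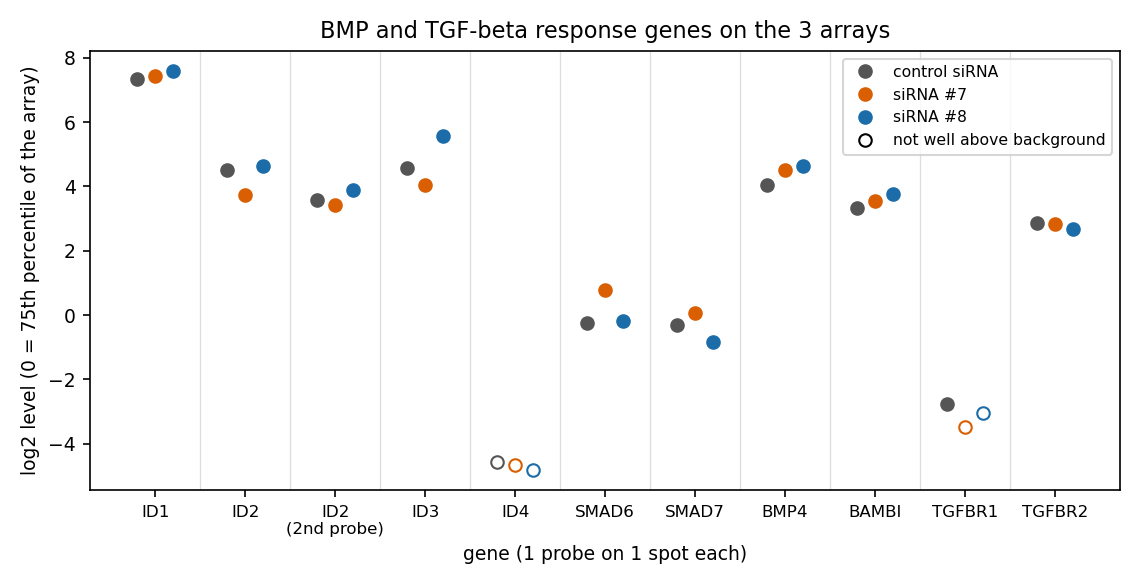
Levels of the 10 genes on the control siRNA (grey), siRNA #7 (orange) and siRNA #8 (blue) arrays, as log2 intensity relative to the 75th percentile of the array, with 1 spot per point and open circles where the probe was not well above background. The *ID3* point of siRNA #8 lies above both others and that of siRNA #7 below them, the *SMAD6* point of siRNA #7 lies above both others, and the levels of different probes are not comparable with each other.

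*ID3* differed most between the siRNAs among these genes. The *ID3* spot read 1245 on the control array, 695 with siRNA #7 and 2049 with siRNA #8. The siRNA #7 value was thus the lowest and the siRNA #8 value the highest of the 3. After scaling, *ID3* was 1.43-fold lower with siRNA #7 than with control siRNA (log2 ratio -0.51, SD 0.14) and 2.03-fold higher with siRNA #8 (log2 ratio 1.02, SD 0.15). Set directly against each other, without the control array, siRNA #8 gave 2.90 times the *ID3* level of siRNA #7 (log2 ratio 1.53, SD 0.15). Of the other measured genes, 51 (0.424%) were at least as far in that direction. The direct difference stayed past 2-fold under each of the 10 alternative settings, of which 8 changed it, between 1.42 and 1.62. The ratio of siRNA #8 to control sat at the threshold, past 2-fold in 6 of the 10 settings. The mean of probes and dropping the filter on dim probes left that ratio unchanged, and the deposited table and kept outlier spots nearly so. It fell short with the median of each array (0.96), spike-in scaling (0.78), normexp (0.81) and removal of neighbouring spots (0.97).

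*ID2* showed a like order on its brighter probe, with siRNA #7 as the low array. This probe read 1210 on the control array, 554 with siRNA #7 and 1058 with siRNA #8. It was 1.74-fold lower with siRNA #7 (log2 ratio -0.80, SD 0.14), and its ratio with siRNA #8 (0.11, SD 0.15) lay within the error and turned to -0.13 with spike-in scaling. Between the siRNAs it was 1.88-fold higher with siRNA #8 (log2 ratio 0.91, SD 0.15). A second *ID2* probe, elsewhere on the arrays, read 628, 452 and 630 in the same order. It also was lowest with siRNA #7, but by less. Its log2 ratios were -0.15 (SD 0.15) with siRNA #7, 0.31 (SD 0.17) with siRNA #8 and 0.46 (SD 0.15) between the siRNAs. The mean of both probes gave -0.47, 0.21 and 0.68.

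*ID1*, the classical BMP target, was bright on every array and moved little. Its intensities were 8575, 7325 and 8290 with control siRNA, siRNA #7 and siRNA #8. The log2 ratios were 0.10 (SD 0.14) with siRNA #7, which turned negative with spike-in scaling and with normexp background correction (-0.23 in each), and 0.25 (SD 0.15) with siRNA #8. The direct difference of 0.15 (SD 0.15) lay within its error. *ID4* (2.23, 1.66 and 1.52) never rose well above background, so no fold is given. Thus the measured *ID* genes did not share one size of change: *ID3* and the brighter probe of *ID2* were lower with siRNA #7 than on both other arrays, beyond the spotting error, and *ID1* was not.

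*SMAD6*, which mainly restrains BMP receptors, was high on the siRNA #7 array only. The spot read 44.4 on the control array, 72.1 with siRNA #7 and 37.4 with siRNA #8. It was 2.04-fold higher with siRNA #7 (log2 ratio 1.03, SD 0.25), whereas the ratio with siRNA #8 was 0.055 (SD 0.26) and turned negative with the median of each array and with spike-in scaling. Between the siRNAs *SMAD6* was 1.96-fold lower with siRNA #8 (log2 ratio -0.97, SD 0.23), a difference that shrank to -0.52 under normexp and to -0.53 without the neighbouring spots, both short of 1.5-fold. Spots around it were also somewhat brighter with siRNA #7: the median log2 ratio of 10 neighbours was 0.23, and without it the *SMAD6* ratio was 0.80. Under normexp, which affects dim spots most, it was 0.59. It passed 2-fold in 6 of the 10 alternative settings, but only 8 of the 10 changed its value. The mean of probes and dropping the filter on dim probes left it unchanged, and the deposited table and kept outlier spots nearly so. It fell short with the median of each array (0.95), spike-in scaling (0.70), normexp and removal of neighbouring spots.

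*SMAD7*, which restrains both TGF-beta and BMP receptors, stood in the same order between the siRNAs. Its spot read 42.4, 43.7 and 24.1 with control siRNA, siRNA #7 and siRNA #8. Its log2 ratio to control was 0.37 (SD 0.25) with siRNA #7 and -0.51 (SD 0.34) with siRNA #8. The siRNA #8 value was 1.85-fold below that of siRNA #7 (log2 ratio -0.88, SD 0.32), and this difference shrank to -0.40 under normexp. Under normexp the ratios to control were 0.17 and -0.23, both smaller than these errors, which were not worked out on the normexp scale. With spike-in scaling the ratio of siRNA #7 was 0.048. Both inhibitory *SMAD* spots were dim, and their errors are wider than those of the *ID* genes.

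*BMP4*, a BMP ligand, was higher than control on both siRNA arrays. Its intensity was 876 on the control array, 959 with siRNA #7 and 1057 with siRNA #8. The log2 ratios were 0.46 (SD 0.15) and 0.57 (SD 0.16), and they stayed positive in each of the 10 alternative settings, with the lowest values, 0.13 and 0.33, under spike-in scaling. The siRNAs differed from each other by 0.12 (SD 0.15), within the error. *BAMBI*, a receptor-like protein without a kinase that dampens both pathways and is induced by them, read 526, 495 and 584. Its log2 ratios were 0.24 (SD 0.15), which turned to -0.086 with spike-in scaling, and 0.45 (SD 0.17). The direct difference was 0.21 (SD 0.15), and 0.47 after removal of neighbouring spots. Neither gene passed 1.5-fold as scaled here. With siRNA #8, *BAMBI* passed it after removal of neighbouring spots (0.66), and *BMP4* with quantile normalization (0.59) and with the percentile over detected probes (0.63).

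Of the TGF-beta receptors, 1 of 2 could be compared. *TGFBR2*, the type II receptor that binds the ligand, read 388 on the control array, 300.3 with siRNA #7 and 274 with siRNA #8, and after scaling its log2 ratios were -0.043 (SD 0.16) and -0.20 (SD 0.18). The first turned to 0.062 after removal of neighbouring spots and was -0.37 with spike-in scaling. The second was -0.44 with spike-in scaling and -0.46 under normexp. The siRNAs differed by -0.16 (SD 0.16), and by -0.40 after removal of neighbouring spots. These values concern the amount of transcript that the probe binds and say nothing of the protein. *TGFBR1*, the type I receptor, was well above background with control siRNA only, with intensities of 7.78, 3.79 and 5.16. Its control level of -2.76 lay below the lowest level that counted as well above background with siRNA #7 (-2.64) and with siRNA #8 (-2.62), so no bound on a fold could be given.

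**Figure D2:**
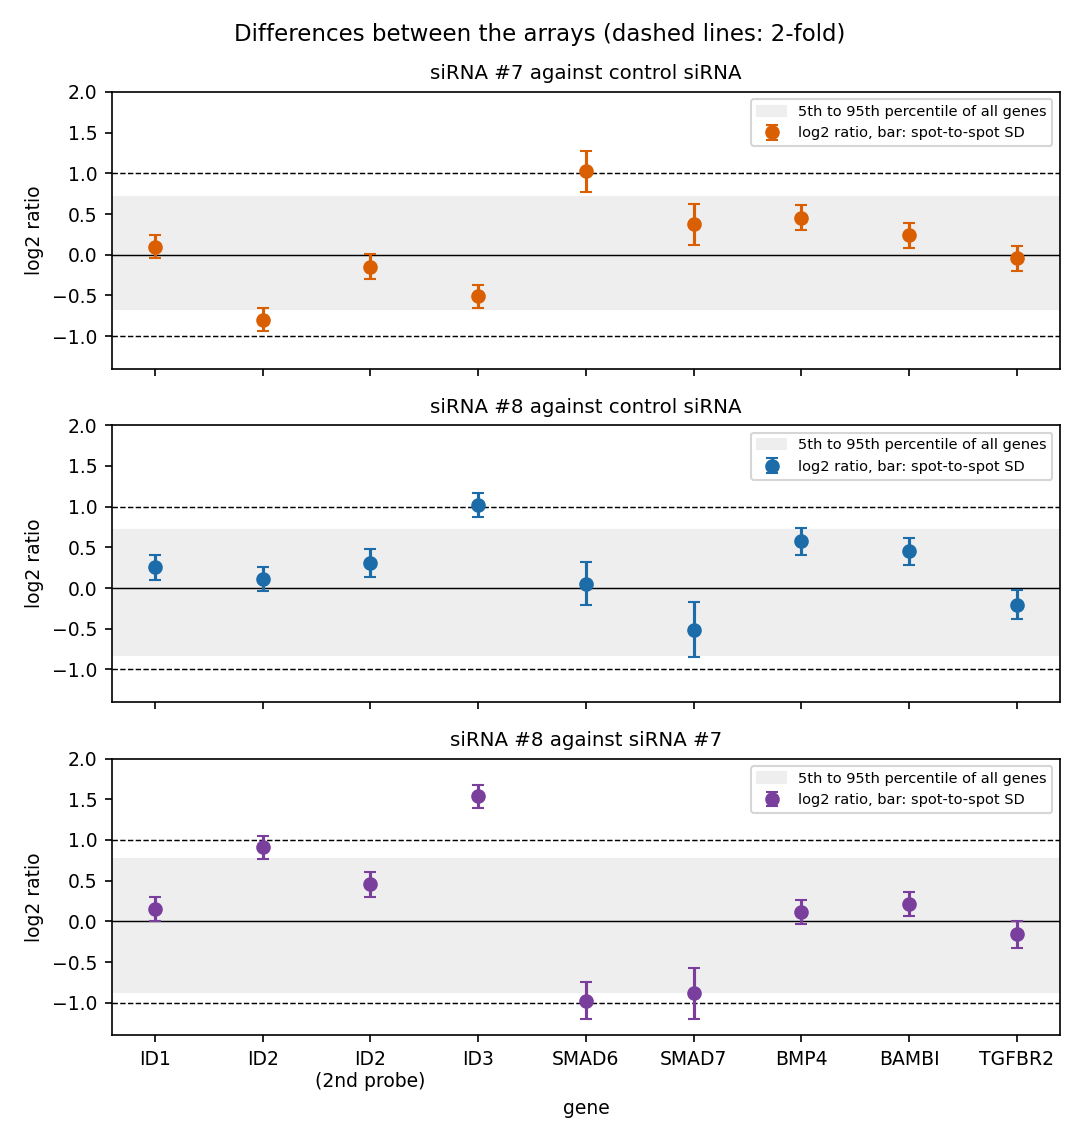
Log2 ratios of the 8 measured genes and the second *ID2* probe for siRNA #7 against control siRNA, siRNA #8 against control siRNA and siRNA #8 against siRNA #7, with bars for the spot-to-spot SD of the ratio, dashed lines at 2-fold and a grey band from the 5th to the 95th percentile of all measured genes. *SMAD6* (1.03) stands above the band and *ID2* (-0.80) below it in the top panel, *ID3* (1.02) above it in the middle panel, and *ID3* (1.53) and *ID2* (0.91) above it in the bottom panel, where *SMAD6* (-0.97) and *SMAD7* (-0.88) stand below it.

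Counted over the 8 measured genes, 1 (*SMAD6*) was at least 2-fold higher with siRNA #7, where 2.05% of all genes were, and 0 were 2-fold lower, where 1.72% were. With siRNA #8, 1 gene (*ID3*) was at least 2-fold higher, against 1.95% of all genes, and 0 were lower, against 3.03%. Between the siRNAs, 1 (*ID3*) was at least 2-fold higher with siRNA #8, against 2.27%, and 0 were lower, against 3.38%. Each of these counts is a single gene. At 1.5-fold, siRNA #7 had *SMAD6* higher (7.6% of all genes) and *ID2* lower (6.92%). With siRNA #8, *ID3* was again the 1 gene higher at 1.5-fold (7.79%), and 0 were lower (10.3%). The direct comparison held most at this threshold, with *ID2* and *ID3* higher in siRNA #8 (2 of 8, against 8.87% of all genes) and *SMAD6* and *SMAD7* lower (2 of 8, against 11.6%). The lower pair did not hold under normexp, where *SMAD6* (-0.52) and *SMAD7* (-0.40) both fell short of 1.5-fold, and *SMAD6* (-0.53) also did without the neighbouring spots. *ID2* counts here by its brighter probe. Its second probe fell short of 1.5-fold with siRNA #7 (-0.15) and between the siRNAs (0.46). The mean of both *ID2* probes fell short with siRNA #7 (-0.47) and was past 1.5-fold between the siRNAs (0.68). The genes are not independent and were chosen with earlier results of these data known, and no test of the list was made.

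The medians of the list were near those of all genes. For the 8 genes the median log2 ratio was 0.17 with siRNA #7, 0.18 with siRNA #8 and 0.13 between the siRNAs, beside 0.016, 0.0073 and -0.012 over all 12029 genes. Of the 8, 5 were above 0 with siRNA #7, 6 with siRNA #8 and 5 between the siRNAs, against 51.7%, 50.8% and 48.8% of all genes. The size of the ratios, whatever the sign, had a median of 0.42, 0.35 and 0.55 for these genes and of 0.24, 0.27 and 0.29 for all genes. With spike-in scaling the medians with siRNA #7 and siRNA #8 turned to -0.16 and -0.058.

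**Figure D3:**
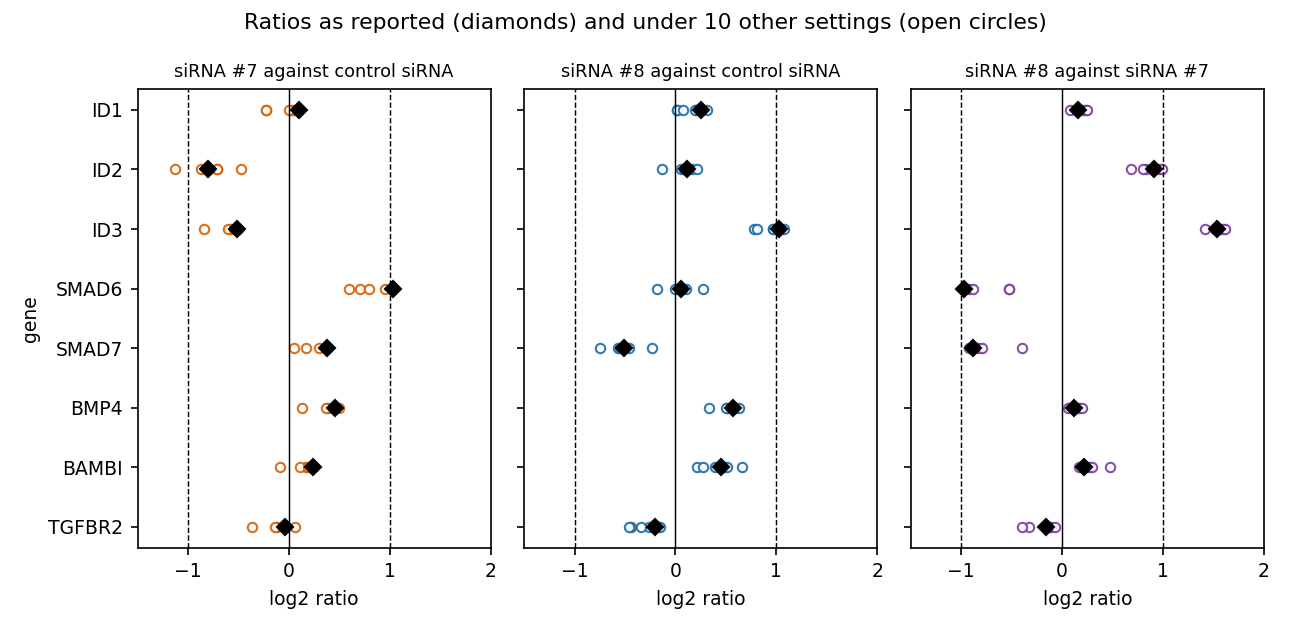
Log2 ratios of the 8 measured genes as reported (black diamonds) and under the 10 alternative settings of scaling, background, filter and probe choice (open circles), with dashed lines at 2-fold. For *ID3* in siRNA #8 against siRNA #7 every circle lies past 2-fold (1.42 to 1.62), whereas circles for *ID1*, *BAMBI* and *TGFBR2* with siRNA #7 and for *ID2* and *SMAD6* with siRNA #8 fall on both sides of 0.

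The rest of the pathway was read from 10 lists chosen by role, with 126 genes, of which 124 had a probe and 52 were well above background on all 3 arrays. A further 54 were below background on all of them. Of the 52, 1 gene was 2-fold higher and 1 was 2-fold lower with siRNA #7, beside 2.05% and 1.72% of all genes. With siRNA #8, 2 were higher and 0 were lower (1.95% and 3.03% of all genes), and between the siRNAs 0 were higher and 1 was lower (2.27% and 3.38%). Their median log2 ratios were -0.076, 0.023 and 0.15. A bulk array cannot tell a change in every cell from a change in the share of cells that express a gene.

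Most ligands were not measurable. Of 13 other BMP ligands 2 were measured, and *BMP2* was below background on all arrays. The brighter, *BMP7*, read 228, 173 and 205 with control siRNA, siRNA #7 and siRNA #8, with log2 ratios of -0.069 and 0.15. Of 14 TGF-beta and activin ligands 4 were measured, and none passed 2-fold. *GDF15*, a stress-induced member of the family, was the brightest of them (25355, 26600 and 17622), with log2 ratios of 0.40 and -0.22.

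Among 15 extracellular antagonists, 4 were measured. *NOG*, which encodes noggin, the secreted trap for BMP ligands, was the one that passed 2-fold. Its dim spot read 8.29, 10.7 and 14.1, with log2 ratios of 0.69 (SD 0.40) with siRNA #7 and 1.07 (SD 0.41) with siRNA #8. Under normexp and with spike-in scaling *NOG* was no longer 2-fold higher with siRNA #8. *FSTL1* (188, 169 and 231) had ratios of 0.17 and 0.60, which were -0.048 and 0.37 after removal of neighbouring spots. *GREM1* and *FST* were below background on all arrays.

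Of 16 other receptors and co-receptors, 5 were measured and none passed 2-fold with either siRNA. *ACVR2A*, an activin type II receptor, was past 1.5-fold with both siRNAs (intensities 19.6, 24.3 and 25.4), with log2 ratios of 0.64 (SD 0.40) and 0.68 (SD 0.41), which fell short of it at 0.40 and 0.57 after removal of neighbouring spots. *BMPR1A*, a BMP type I receptor, read 183, 132 and 168, with ratios of -0.14 and 0.19. *BMPR2* was below background on all arrays.

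All 6 signal-carrying *SMAD* genes were measured. *SMAD9*, a BMP-responsive *SMAD*, was 2.41-fold higher with siRNA #8 (15.2, 16.8 and 29.6 on the control, siRNA #7 and siRNA #8 arrays), with log2 ratios of 0.48 (SD 0.40) and 1.27 (SD 0.41). Under normexp it was no longer 2-fold higher with siRNA #8. A second *SMAD9* probe read 7.28, 4.61 and 11.2 and was well above background with siRNA #8 only, so no fold is given for it. *SMAD3*, the brightest of the 6, read 834, 565 and 445, with log2 ratios of -0.23 and -0.60, and 0.18 and -0.70 after removal of neighbouring spots.

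Among 15 *SMAD* ubiquitin ligases and co-repressors, 12 were measured and none passed 2-fold. Of these, 10 were below control with siRNA #7 and 5 with siRNA #8, where 5807 and 5918 of the 12029 genes were. *SMURF2*, a ligase that marks receptors and SMADs for degradation, was past 1.5-fold lower with both siRNAs: it read 39.5, 20.3 and 17.5, with log2 ratios of -0.63 (SD 0.33) and -0.87 (SD 0.34). *STRAP*, a partner of SMAD7, was bright (5163, 3823 and 5127) and had ratios of -0.11 and 0.29.

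Other targets did not move as one. Of 15 BMP targets beside the *ID* genes, 5 were measured, none passed 2-fold, and their median log2 ratios were -0.073 and 0.060. *RUNX3*, the brightest of them, read 1208, 987 and 742, with ratios of 0.037 and -0.40. Of 21 TGF-beta targets 9 were measured, with medians of -0.12 and -0.12. The TGF-beta targets *CCN2*, *CDKN2B* and *TGFBI* were below background on every array.

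*SNAI1*, a repressor of epithelial genes, read 185, 350.1 and 277, with log2 ratios of 1.25 (SD 0.16) and 0.88 (SD 0.18). Its 13 neighbouring spots, which belong to other genes, had medians of 1.46 and 0.98, and without them the *SNAI1* ratios were -0.21 and -0.095. *ANGPTL4*, a lipase inhibitor, was lower with both siRNAs, at 1029, 407 and 446. Its log2 ratios were -1.01 (SD 0.15) and -0.90 (SD 0.17), and they were -0.91 and -0.71 without its neighbours. *BHLHE40*, a clock-linked repressor, read 157, 64.6 and 74.8, with log2 ratios of -0.95 (SD 0.19) and -0.76 (SD 0.21). Of these 3 TGF-beta targets, *SNAI1* thus lost its difference with the neighbours removed, and the other two kept their sign.

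Among latent TGF-beta binding and activating proteins, 3 of 8 were measured, and *LTBP4* (2066, 1907 and 2020) had log2 ratios of 0.21 and 0.27. Of the E proteins that ID proteins bind, *TCF3* (2516, 1935 and 1642) had ratios of -0.051 and -0.31, and *TCF4* was below background on all arrays.

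**Figure D4:**
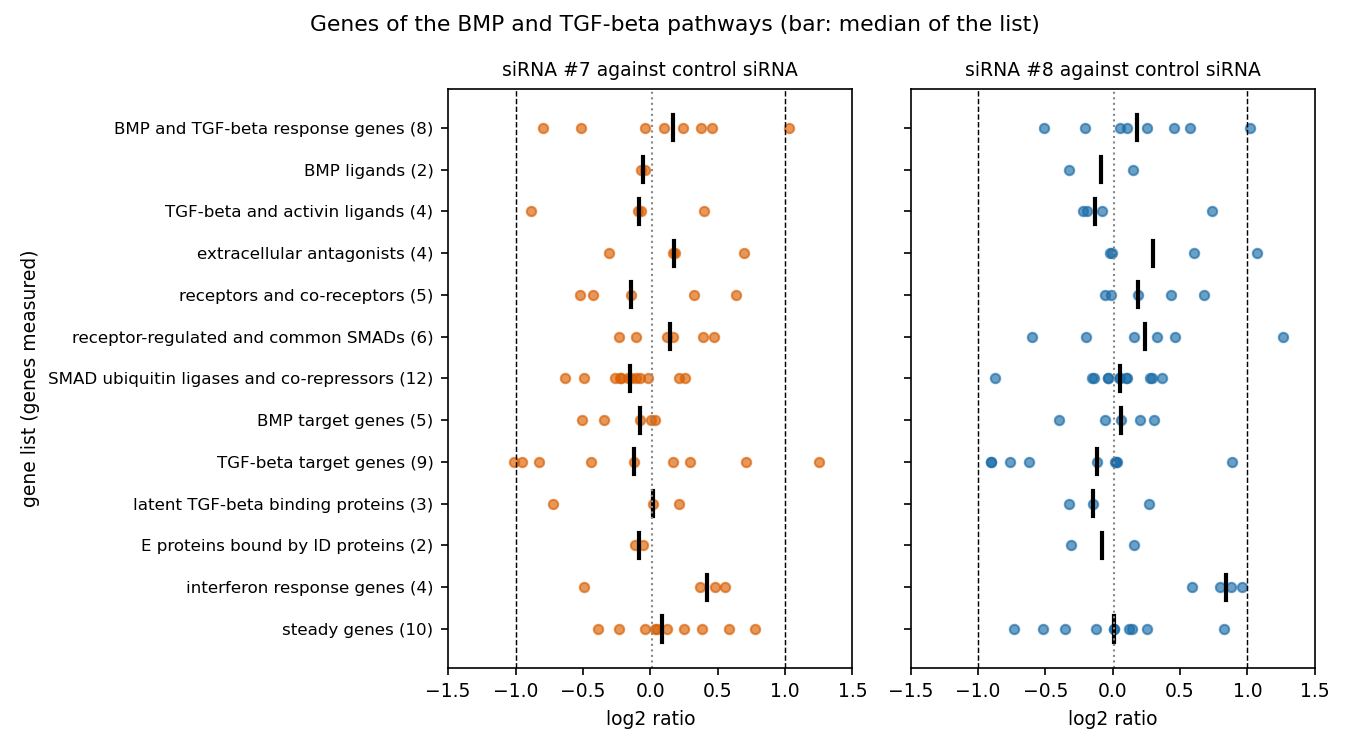
Log2 ratios to control siRNA of every measured gene of each list (points; the number measured is in brackets), with a black bar at the median of the list, dashed lines at 2-fold and a dotted line at the median of all genes. The list medians of the pathway lie on both sides of 0, between -0.15 and 0.30, and those of the interferon response genes at 0.42 with siRNA #7 and 0.84 with siRNA #8.

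The cells expressed most of the epithelial markers looked for. Of 7 colon epithelium markers 6 were measured, and *VIL1* was below background on all arrays. Of 5 fibroblast markers *COL1A1* was measured and the other 4 were below background on all arrays, and of 3 endothelial and 4 leukocyte markers none was measured on all arrays. The measured interferon response genes, which transfected RNA can induce, were higher than control with siRNA #8, and *ID3* was too. With siRNA #7, 3 of them were higher and 1 (*IFIT2*) was lower, and *ID3* was lower. Of 7 such genes 4 were measured, with log2 ratios from -0.49 to 0.55 with siRNA #7 (median 0.42), from 0.59 to 0.96 with siRNA #8 (median 0.84) and from 0.22 to 1.46 between the siRNAs, and *IFIT3* and *OAS1* were below background on all arrays. The value of 1.46 was that of *IFIT2*, a dim spot that read 27.6, 15.6 and 43.6, and the next highest was 0.33 (*IFIT1*). The part of the interferon response genes in the *ID3* values was not tested. The 10 steady genes had medians of 0.089 and 0.0070, both smaller than the shift of the spike-in scaling, and ranged from -0.39 to 0.78 with siRNA #7 and from -0.73 to 0.83 with siRNA #8.

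Promoters were searched because the *ID* and inhibitory *SMAD* genes share control by SMAD proteins. The 250 bases before each RefSeq start (GRCh38.p14) were read on both strands for GTCTAGAC, a palindrome bound by SMAD3 and SMAD4, for GGCGCC, a GC-rich element bound by BMP-responsive SMADs, and for CAGACA, which holds the CAGA box. These motifs share no full match with one another. All 10 genes had a window. GTCTAGAC occurred in 0.182% of the 35116 windows (0.231% of genes) and in 1 of the 10 genes, *SMAD6*, 12 to 5 bases before its start. GGCGCC occurred in 16.4% of windows (19.0% of genes) and in 3 of the 10 genes, *BMP4*, *BAMBI* and *TGFBR1*. The *BAMBI* promoter held 3 matches. CAGACA occurred in 13.6% of windows (16.3% of genes) and in 2 of the 10 genes, *BMP4* and *TGFBR1*. No match was found in the windows of *ID1*, *ID2*, *ID3*, *ID4*, *SMAD7* or *TGFBR2*, which says only that these letters are not in these windows. The matches, in capitals, are shown with flanking bases for the gene with the rarest motif and the one with the most copies. The *SMAD6* stretch is chr15:66702202-66702235 and the *BAMBI* stretch chr10:28677290-28677367, both on the plus strand.
*SMAD6*: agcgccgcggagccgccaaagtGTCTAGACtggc
*BAMBI*: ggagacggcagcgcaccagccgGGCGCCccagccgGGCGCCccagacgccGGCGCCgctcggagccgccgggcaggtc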

How the data were processed

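HCT116 cells treated with control siRNA, siRNA #7 or siRNA #8 were measured with 1 array per condition, grouped by the sample titles. The deposited array names number both siRNAs differently, and the titles were followed. The deposited intensity per spot, background-subtracted and unscaled, came from Agilent Feature Extraction 11.5.1.1, run by the authors. The authors also deposited a log2 table of 21189 probes. Set against the intensities it had a slope of 1.00, a shift equal to that of the 75th percentiles (0.33 and 0.30) and each row centred on its middle value, so every column has a median of 0. It served as an alternative. Of 62976 spots per array, 58717 carried 50599 gene probes, of which 20475, 19073 and 19251 passed as well above background with control siRNA, siRNA #7 and siRNA #8. No spot was saturated (0 on each).

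In Python 3.11.15 (numpy 2.4.6, pandas 2.3.3), spots with an outlier flag (409, 413 and 313) were left out and the spots of a probe averaged. Each array was scaled to its 75th percentile. Of 50593 probes with a value on all arrays, 30000 were named through RefSeq accessions without versions (GRCh38.p14); the design follows an earlier build, so no probe coordinates are given. A probe was well above background if 50% or more of its spots were, and the brightest probe passing on all 3 arrays stood for a gene. Each of the 11 probes of the 10 genes was printed on 1 spot, and 0 of these spots had an outlier flag. The spot-to-spot SD came from 620, 603 and 614 probes printed 10 times, in 6 ranges of signal.

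No test was made. The text names all 10 genes and, from each list, genes past 2-fold with either siRNA, genes past 1.5-fold in 1 direction with both, and the brightest; genes named as below background serve as examples. The genes, lists and alternatives were chosen with earlier results of these data known. Alternatives were the median of each array, quantile normalization, the percentile over detected probes, E1A spike-in scaling, normexp (limma 3.58.1 in R 4.3.3, offset 50) on median signals, the deposited table, removal of the median of neighbours within 3 rows and columns, the mean of probes, no filter on dim probes, and outlier spots kept, with 1.5-fold for counts. Steps were tested on simulated data. siRNA sequences came from the study's supplement and promoters from RefSeq. Proteins and probe sequences were not used here.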

Additional observations from a re-analysis of the deposited data

Results flagged for a closer look

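*ID3* was lower than control with siRNA #7 (log2 ratio -0.51) and higher with siRNA #8 (1.02), so that the siRNAs, which target the same junction, lay on opposite sides of control, and their direct difference was 1.53. *SMAD7* was above control with siRNA #7 (0.37) and below it with siRNA #8 (-0.51), with a direct difference of -0.88. Both were singled out because the 2 arrays lie on opposite sides of the control by more than the spotting error of each ratio. For *SMAD7* this did not hold with spike-in scaling, where the ratio of siRNA #7 was 0.048. Under normexp the *SMAD7* ratios were 0.17 and -0.23, smaller than the spotting errors, which were not worked out on the normexp scale. With 1 array per siRNA, neither difference was tested.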

How the results depend on the processing

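No paired analysis was possible because there is 1 array per condition. The ratios of *SMAD6* with siRNA #7 and of *ID3* kept their sign under each of the 10 alternatives, and quantile normalization, the percentile over detected probes, the deposited log2 table and keeping outlier spots kept every count of these genes and lists within 1.5 times and moved no median by more than the spotting error. The 1 gene 2-fold higher with siRNA #7 (*SMAD6*) and the 1 with siRNA #8 (*ID3*) each became 0 with the median of each array, spike-in scaling, normexp and removal of neighbouring spots. The 0 genes lower with siRNA #7 became 1 (*ID2*) with spike-in scaling and at 1.5-fold, and between the siRNAs 1.5-fold gave 2 higher and 2 lower. The median of the 8 genes with siRNA #7 turned to -0.16 with spike-in scaling and -0.013 under normexp, and that with siRNA #8 to -0.058 with spike-in scaling.

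For the pathway lists with siRNA #7, the count higher became 0 with spike-in scaling and with neighbours removed, 7 without a filter on dim probes and 4 at 1.5-fold. The count lower became 2 with the median of each array and with the mean of probes, 5 with spike-in scaling, 0 with neighbours removed, 7 without the filter and 6 at 1.5-fold. With siRNA #8 the count higher became 1 with spike-in scaling, 0 under normexp, 11 without the filter and 6 at 1.5-fold, and the count lower 4, 1, 6 and 6 in the same order. Between the siRNAs the count higher became 1 with the mean of probes, 7 without the filter and 6 at 1.5-fold, and the count lower 0 with spike-in scaling and under normexp, 9 without the filter and 4 at 1.5-fold. The medians of the lists became -0.40 (siRNA #7) and -0.22 (siRNA #8) with spike-in scaling, and 0.15 (siRNA #7) and -0.0056 (between the siRNAs) without the filter. The median of all genes became -0.31 (siRNA #7) and -0.23 (siRNA #8) with spike-in scaling, which moves every gene of a comparison equally. Without the filter it became 0.15 (siRNA #7) and -0.039 (between the siRNAs). The cause of the other changes was not tested.

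Over all genes, 247 were 2-fold higher and 207 lower with siRNA #7, and 235 and 364 with siRNA #8. These counts became 118 and 582, and 123 and 708, with spike-in scaling, and 61 and 103, and 41 and 178, under normexp. Without the filter on dim probes they were 1205 and 728, and 1273 and 970, over 21608 genes. Spots near background, such as that of *NOG*, limit the ratios of dim genes. The spots of *NOG*, *SMAD6* and *SMAD7* were dim, though each counted as well above background on all 3 arrays.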

Other observations

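The following genes of the lists were chosen after their values were seen. *TGFB1*, the main TGF-beta ligand, read 133 on the control array and 57.3 with siRNA #7, with the siRNA #8 value between them, as means of 10 spots, and its log2 ratios to control were -0.89 and -0.19. *TPM1*, an actin-binding TGF-beta target, read 175, 78.4 and 145 on the control, siRNA #7 and siRNA #8 arrays, with log2 ratios of -0.83 and 0.032. Its neighbouring spots had a median of -0.85 with siRNA #7, and without them that ratio was 0.019. The other *TPM1* probes had log2 ratios of -1.73 and -0.83 with siRNA #7, and -1.19 and -0.79 without their neighbours. With spike-in scaling the ratio of the first *TPM1* probe with siRNA #8 turned negative. *CCN1*, a matrix protein gene and the 1 pathway gene past 2-fold lower between the siRNAs, read 320.0, 287 and 139, with log2 ratios of 0.17 (negative with spike-in scaling) and -0.90 to control and -1.08 between the siRNAs. *CDKN1A*, a cell cycle inhibitor gene, read 144, 188 and 119, with log2 ratios of 0.71 and 0.019 (the second negative with spike-in scaling). *GATA3*, a BMP target in some tissues, was dim at 15.9, 8.91 and 15.9, with log2 ratios of -0.51 and 0.30.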
